A study of Mus musculus with 3 samples.

Results

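The oligodendrocyte-lineage-like cells described here are the 77 of 149 cells that the authors' table per cell assigns to cluster 0 or cluster 2. They were chosen by these cluster numbers alone and came from 3 plates, with 4 cells on plate 1, 25 on plate 2 and 48 on plate 3. Cluster 0 gave 42 of the cells and cluster 2 gave 35.

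The series holds single cells from the subventricular zone of the mouse brain, the lining of the lateral ventricles where neural stem cells persist in the adult. All 3 samples form 1 group, SVZ, from male C57BL/6J animals obtained from Envigo, with no treatment and no age stated, and each sample is read here as 1 plate. Per the labels' protocols, each experiment drew on 8 mice, though the design text can also be read as 8 mice in all over 3 days. The cells were taken through trypsin and held on a magnetic column by an antibody to GLAST, which is the product of the glutamate transporter gene Slc1a3. Myelin was removed magnetically in 2 of the 3 experiments, which are not named. Each cell has a count of transcripts per gene from SORT-seq, a plate method that tags every molecule at its 3′ end, and an autofluorescence value, the light a cell gives off without a stain.

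Oligodendrocytes wrap axons of the central nervous system in myelin, a stack of membrane rich in cholesterol, galactolipids and a small set of structural proteins. The transcription factors Olig2, Sox10 and Myrf direct the lineage, from dividing precursors that carry Pdgfra to mature cells that express Mog. Mature cells also store iron, buffer potassium around axons and pass metabolic fuel to them.

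The 77 cells had a median of 9012 transcripts and 2724 genes each, and the totals ran from 1208 to 37442 transcripts. Median totals were 11174, 11185 and 7925 on plates 1, 2 and 3, against 3455 over the 36 cells of the microglia-like cluster 1 and 4192 over the 30 cells of cluster 3, which is rich in astrocyte and stem cell markers. Levels are given as CPM, the transcripts of a gene in the summed cells of a plate, scaled to a total of 1000000. The count is of molecules and was not divided by gene length. The plates reused 50 well positions among all cells and 16 among these cells. Cells in the same position of different plates correlated at a median r of 0.619 across genes in 16 pairs, against 0.592 in other pairs, and the highest r of any pair was 0.794. No label states that the plates came from different animals, so the spread over plates may be technical in part.

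The labels name the sorted cells neural stem cells, and these 77 do not carry that profile. All 4 markers Mbp, Mog, Mag and Cnp were found in 76 cells. A single cell held none of them. It lies on plate 1 in cluster 2 and had 1993 transcripts from 831 genes, 28.0% of them from the mitochondrial genome, with 5 transcripts of Mki67, 7 of Ccnd2, 8 of Slc1a2 and 3 of Dlx2. Its share of the myelin list was 0.301%, the lowest of all 77 cells, and it is 1 of only 4 cells on its plate. Plate 1 shares and levels below that it moved by over 1.5 times are given with and without it.

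Myelin genes led the programme. Cldn11, the claudin of the tight junctions in myelin, stood at 11630, 11492 and 9677 CPM on plates 1, 2 and 3, a mean of 10933 ± 1090 (SD, n = 3). It was seen in 76 of the 77 cells, with a median of 80.8 transcripts per cell and 592 in the highest. Mal, a membrane sorting proteolipid, stood at 12677, 10044 and 10012 CPM. Their levels differed by less than 1.3-fold between any pair of plates. Cnp, a phosphodiesterase of the cytoplasmic channels of myelin, stood at 7289, 7885 and 8545 CPM, and Mbp, which compacts the membrane, at 6835, 7735 and 7874 CPM. Tspan2, a tetraspanin, had 5430, 3889 and 3583 CPM. Mag, the adhesion protein facing the axon, had 3001, 3798 and 3354 CPM, and Mog, on the outermost lamella, had 2662, 2302 and 2289 CPM. Mobp was the member with the widest spread among these, at 1225 CPM on plate 1 against 2712 and 2710 on plates 2 and 3.

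In the RefSeq annotation of assembly GRCm38.p6, Cldn11 lies on chromosome 3 from 31149920 to 31164326, and Mal lies on chromosome 2 from 127633226 to 127656695. The build mm10, which the submitters name without a role, is the matching one for the mouse.

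Of the 33 listed myelin genes, all 33 were detected and 31 reached a mean of 100 CPM over plates, against 1608 of all 16178 genes. Their median was 1032 CPM, where the median of all genes was 7.93 CPM. Together they made up 11.2%, 11.5% and 10.6% of transcripts on plates 1, 2 and 3. Single cells ranged from 0.301% to 15.9% with a median of 10.3%. In cluster 1 the same list gave 0.182%, 0.665% and 0.835% on the 3 plates and in cluster 3 it gave 0.357% on plate 1, the only plate with more than 4 cluster 3 cells. The clusters were drawn from these very genes, so the gap describes how the cells were sorted into clusters and is not a test. Mbp was nevertheless seen in 50% of cluster 1 cells, at 33.7 CPM on plate 1 with its 4 oligodendrocyte-lineage-like cells and 516 and 545 CPM on plates 2 and 3 with 25 and 48. Whether free RNA gave those transcripts was not tested.

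**Figure D1:**
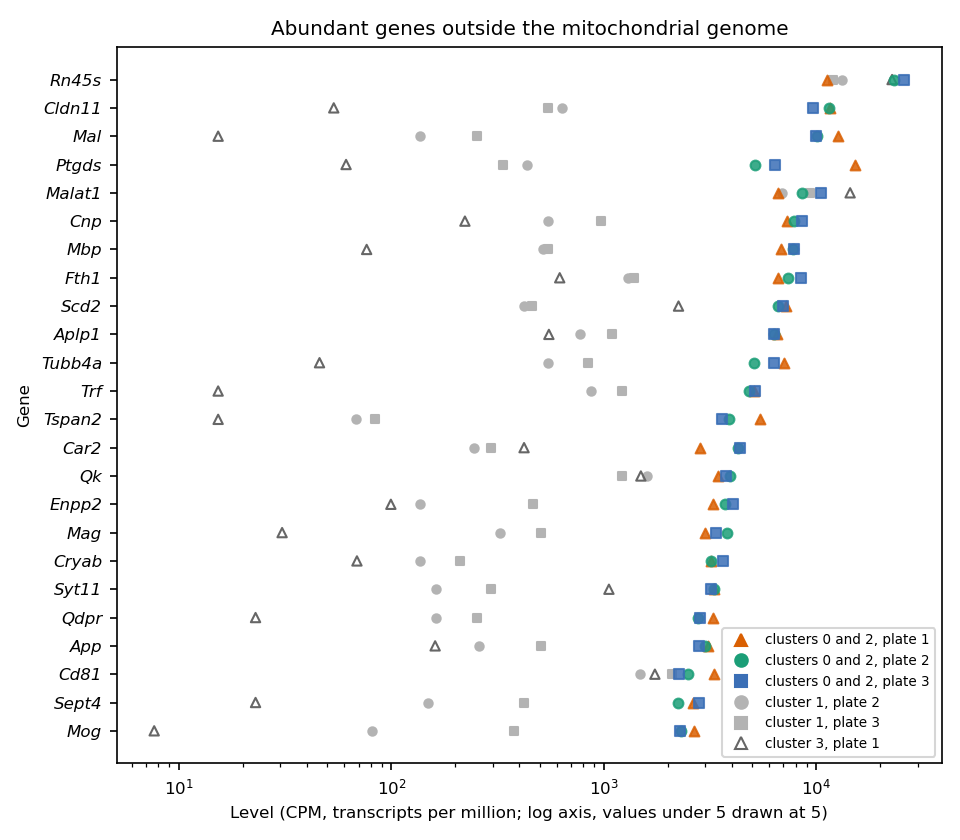
Abundant genes outside the mitochondrial genome and the ribosomal proteins, with the level per plate in CPM on a log axis; coloured symbols are the oligodendrocyte-lineage-like cells on plates 1 to 3 and grey symbols are summed cells of cluster 3 on plate 1 and of cluster 1 on plates 2 and 3. Cldn11 lies between 9677 and 11630 CPM, while Ptgds runs from 5169 to 15151 CPM.

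Transcripts were concentrated in few genes. The 10 most abundant genes held 18.4%, 18.8% and 17.3% of transcripts on plates 1, 2 and 3, and the top 100 held 41.2%, 41.5% and 40.2%. On each plate the top 10 included the mitochondrial genes mtAtp6, mt-Rnr2, mtCytb, mtCo1, mtNd4 and mtCo2, with mtAtp6 at 23441, 20367 and 19197 CPM. Besides myelin and mitochondrial genes the leading set contained Rn45s, a ribosomal RNA precursor, at 11234, 23161 and 25991 CPM. It also held Malat1, a nuclear noncoding RNA, at 6583, 8585 and 10533 CPM. Fth1, the heavy chain of ferritin, stood at 6625, 7333 and 8422 CPM, and Trf, transferrin, at 5106, 4813 and 5126 CPM. Ptgds, prostaglandin D2 synthase, had 15151 CPM on plate 1 and 5169 and 6390 on plates 2 and 3, so its mean was 8903 CPM with plate 1 and 5779 CPM without the 4 cells of that plate. Aplp1, Tubb4a, a tubulin of oligodendrocytes, Car2, a carbonic anhydrase, Qk, an RNA-binding regulator of myelin splicing, and Enpp2, which makes lysophosphatidic acid, all lay between 2823 and 7027 CPM on each plate.

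Detection followed depth. Some transcript of 12110 genes was seen in at least 1 of the 77 cells, of 1706 genes in at least 50% of cells, and of 24 genes in every cell. With each cell thinned to 2000 transcripts, which left out 3 shallower cells, 317 genes were expected in at least 50% of the 74 cells, 67 in at least 90% and 25 in at least 99%. At this depth Mbp, Cldn11, Mal, Scd2, Fth1 and Aplp1 were expected in at least 99.9% of cells, and Mog in 96.5%. In cluster 1, thinned in the same way, the expected share was 39.0% for Mbp.

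Plates 2 and 3 gave nearly the same profile. Among 695 genes with a mean of at least 200 CPM over these plates, 675 agreed within 1.5-fold and 0 differed by more than 2-fold, with a Pearson r of 0.979 for log2 levels across genes, which are not independent replicates. Apoe, the main lipid carrier of glia, had the largest ratio, at 529 CPM on plate 2 against 940 on plate 3 and 1855 on plate 1. Ptp4a2 followed with 171 against 289 CPM, and in the other direction Cd47, a signal that restrains phagocytes, had 275 against 171 CPM. For the 4 cells of plate 1, r was 0.854 with plate 2 and 0.864 with plate 3.

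Regulators of the lineage were well detected and precursor markers were not. Sox10 stood at 2237, 1789 and 1844 CPM and Olig1 at 1673, 1442 and 1435 CPM. Myrf, which switches on myelin genes, had 623, 670 and 732 CPM, and Olig2 had 512, 444 and 509 CPM. Zeb2, Carhsp1 and Zfp536 had means of 438, 321 and 257 CPM, and 10 of the 18 listed regulators reached 100 CPM. Of the precursor and newly formed list, 1 of 21 measured genes did so (4.76%), against 9.94% of all genes. That gene was Sirt2, a deacetylase that also belongs to the myelin list, at 971 CPM. Pdgfra, C1ql1 and Neu4, markers of precursors, had no transcript in any of the 77 cells, which allows up to 3.90% of cells with a transcript seen, for counting error only, and does not limit the share of cells that express them. Gpr17, a receptor of committed precursors, was seen in 6.49% of cells, and Enpp6, a marker of newly formed cells, in 31.2%. Enpp6 stood at 173 and 157 CPM in cluster 0 and at 7.34 and 0 CPM in cluster 2 on plates 2 and 3.

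Genes of mature oligodendrocytes took 3.30%, 2.44% and 2.66% of transcripts on plates 1, 2 and 3, and 16 of 24 reached 100 CPM (66.7%, against 9.94% of all genes). Qdpr, which recycles tetrahydrobiopterin, stood at 3279, 2787 and 2841 CPM, Apod, a lipid-binding apolipoprotein, at 1158, 1970 and 2066 CPM, and Opalin, a myelin glycoprotein, at 1538, 1166 and 1451 CPM. Aspa, which breaks down N-acetylaspartate, had 712, 805 and 861 CPM. Klk6, a protease of one mature state, was seen in 10.4% of cells, and S100b in 24.7%.

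Lipid synthesis was uneven. Scd2, a desaturase that makes monounsaturated fatty acids, dominated its list at 7221, 6611 and 6984 CPM and was present in all 77 cells, while its relative Scd1 had a mean of 131 CPM. Tecr, a reductase of chain elongation, stood at 1359, 1017 and 1286 CPM, and the elongases Elovl7, Elovl1 and Elovl6 had means of 363, 289 and 260 CPM. Fasn, which builds palmitate, had 156, 220 and 180 CPM. No transcript of Fads2 was found. The list as a whole held 1.12%, 1.07% and 1.12% of transcripts, with 12 of 27 genes at 100 CPM or more (44.4%, against 9.94% of all genes). Cluster 3 held 1.03% on plate 1 and cluster 1 held 0.200% and 0.201% on plates 2 and 3.

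Enzymes of myelin galactolipids were plentiful. Ugt8a, which adds galactose to ceramide, stood at 1516, 2249 and 1935 CPM, and Fa2h, which hydroxylates the fatty acid of that ceramide, at 1292, 1419 and 1300 CPM. Cers2, the synthase of very long chain ceramides, had 779, 941 and 776 CPM, and Degs1, a ceramide desaturase, 600, 655 and 616 CPM. Gal3st1, which makes sulfatide from the galactolipid, was far lower, with a mean of 98.4 CPM in 54.5% of cells. Cluster 3 on plate 1 had no transcript of Ugt8a or Fa2h, and cluster 1 had 67.9 and 210 CPM of Ugt8a on plates 2 and 3.

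Cholesterol synthesis was low beside these. Its 25 genes made up 0.162%, 0.212% and 0.188% of transcripts on plates 1, 2 and 3, against 0.326% in cluster 3 on plate 1 and 0.0529% and 0.0587% in cluster 1 on plates 2 and 3. All 25 were detected and 6 reached 100 CPM (24.0%, against 9.94% of all genes), with a median of 43.9 CPM. Msmo1, a sterol oxidase listed in the files as Sc4mol, led at 311, 306 and 296 CPM, followed by Hmgcs1, an early enzyme, at 156, 321 and 329 CPM. Of lipid carriers, Apoe was lower here than in cluster 3, which had 10804 CPM on plate 1, and Abca2, a transporter of myelin lipids, stood at 868, 833 and 989 CPM.

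**Figure D2:**
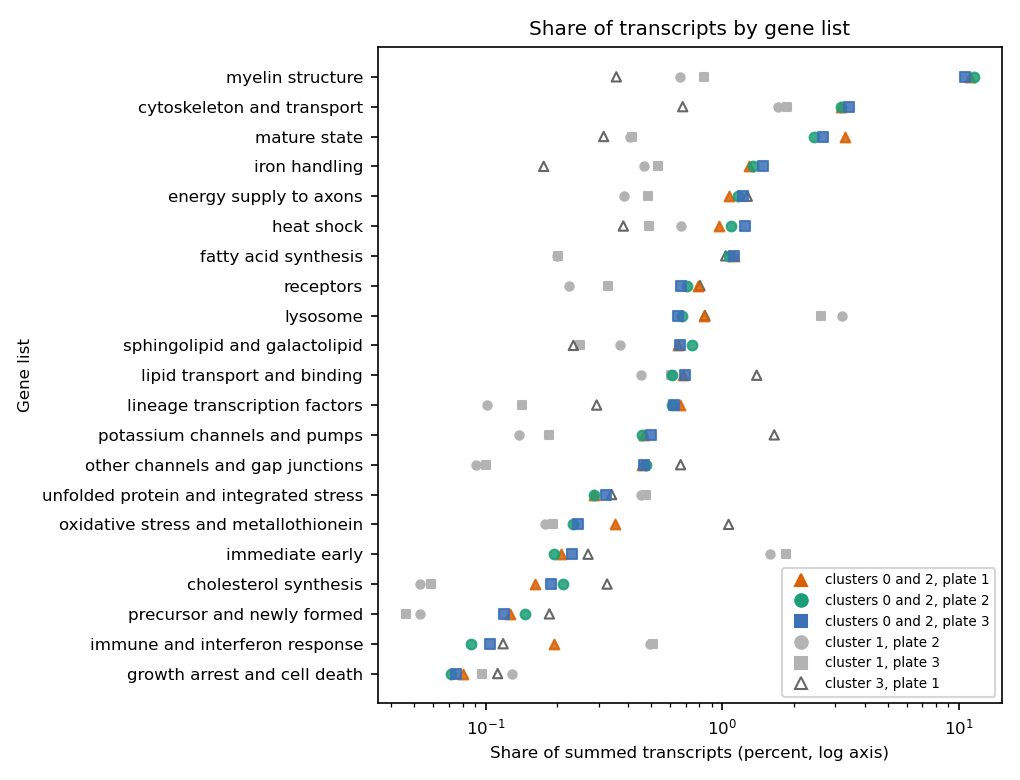
Share of summed transcripts per gene list in percent on a log axis, for the oligodendrocyte-lineage-like cells on plates 1 to 3 (coloured) and in grey for cluster 3 on plate 1 and cluster 1 on plates 2 and 3. The myelin list lies between 10.6% and 11.5% on each plate. Immediate early genes lie near 0.2% where cluster 1 has 1.59% and 1.85% and cluster 3 has 0.271%.

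Potassium channel and pump genes were led by a cotransporter and a pump subunit. Slc12a2, a cotransporter of sodium, potassium and chloride, stood at 1382, 1389 and 1421 CPM, and Atp1b3, a subunit of the sodium pump, at 1092, 881 and 1043 CPM. Among potassium channels Kcna1 had 467, 707 and 746 CPM, the inward rectifier Kcnj10 had 378, 529 and 505 CPM, Kcna6 had 356, 269 and 317 CPM and Kcna2 had 156, 211 and 185 CPM. At 2000 transcripts, Kcna1 was expected in 72.6% of these cells and 15.3% of cluster 1 cells. Of 28 potassium genes, 10 reached 100 CPM (35.7%, against 9.94% of all genes). The list had 82.1% of its genes detected, against 74.9% of all genes. Kcnj3, Kcnab2 and Kcnk10 were among the 5 not detected. The list held 0.465%, 0.458% and 0.502% of transcripts against 1.66% in cluster 3 on plate 1.

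Connexins that couple oligodendrocytes were present. Gjc3 stood at 1315, 1032 and 975 CPM and Gjb1 at 200, 217 and 250 CPM. Clic4, an intracellular chloride channel, had 712, 775 and 704 CPM, and Slc24a2, an exchanger of sodium, calcium and potassium, had 423, 685 and 563 CPM. The sodium channel genes Scn1a, Scn2b and Scn4b and the calcium channel gene Cacna1a had no transcript. Receptors included Gpr37, which slows oligodendrocyte differentiation, at 913, 1005 and 1179 CPM, Lpar1 at 690, 646 and 517 CPM and Fgfr2 at 534, 612 and 581 CPM, whereas Gria1, Gria3 and Grin1 were not detected. Lpar1 had no transcript in cluster 3 on plate 1 or in cluster 1 on plates 2 and 3.

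Stress genes split by kind. Heat shock genes held 0.972%, 1.09% and 1.25% of transcripts on plates 1, 2 and 3, against 0.549%, 0.670% and 0.491% in cluster 1. In cluster 3 they held 0.382% on plate 1. Cryab, a small heat shock protein that is also abundant in myelin, stood at 3198, 3199 and 3644 CPM. It counts in both the heat shock and the myelin list. In cluster 1 it had 67.4, 136 and 210 CPM, so Cryab made up part of the gap in heat shock share. Hsp90aa1 stood at 1715, 2162 and 2506 CPM, Hspa8 at 1337, 1444 and 1693 CPM and Hsp90ab1 at 1315, 1339 and 1777 CPM. The stress-induced Hspa1a had 22.2, 6.11 and 13.9 CPM and Hspa1b had 0, 45.8 and 18.5 CPM, in 8 and 10 of the 77 cells. In cluster 1, Hspa1b had 303 and 680 CPM on plates 1 and 2 and 0 on plate 3.

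Immediate early genes, which respond within minutes to cell handling as well as to signals, held 0.209%, 0.195% and 0.231% of transcripts. Cluster 1 had 1.36%, 1.59% and 1.85% on the same plates, and cluster 3 had 0.271% on plate 1. Of the 28 listed, Rhob, Jun and Jund reached 100 CPM, which is 10.7% of the list, near the 9.94% of all genes. Rhob, a small GTPase, stood at 578, 1060 and 1166 CPM and Jun at 556, 257 and 255 CPM. Fos had 22.2, 15.3 and 23.1 CPM in 18.2% of cells, and Egr1 had 0, 15.3 and 16.2 CPM in 10.4% of cells. At 2000 transcripts, Fos was expected in 5.03% of these cells against 55.5% in cluster 1, and Egr1 in 3.41% against 78.6%.

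Other stress lists were modest. The unfolded protein and integrated stress list was led by Psat1, an enzyme of serine synthesis, at 1024, 633 and 824 CPM, while Trib3, Chac1, Sesn2 and Ern1 had no transcript. Among antioxidant genes Prdx1 stood at 489, 471 and 579 CPM and Gpx4 at 534, 388 and 370 CPM, and the inducible Hmox1 and Nqo1 had no transcript. Il33, an alarmin stored in oligodendrocyte nuclei, had 1294, 474 and 542 CPM and was absent from cluster 1, while B2m had 44.4, 45.8 and 92.5 CPM against 3485 and 3149 in cluster 1 on plates 2 and 3. Cell death genes held 0.0800%, 0.0712% and 0.0750% of transcripts, and Cdkn2a was not detected.

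Iron genes held 1.30%, 1.35% and 1.49% of transcripts, almost all from Fth1 and Trf, and Ftl1, the light chain of ferritin, stood at 757, 600 and 616 CPM. Of genes that feed axons, Slc16a1, the lactate transporter of oligodendrocytes, had 133, 147 and 143 CPM in 61.0% of cells. Lysosome genes held 0.837%, 0.674% and 0.650%, led by Lamp1 at 2278, 1990 and 1902 CPM, against 2.77%, 3.19% and 2.61% in cluster 1. The lysosome share of cluster 3 was 0.844% on plate 1. Mitochondrial transcripts made up 14.17%, 13.38% and 12.04% of the total and from 2.97% to 43.2% in single cells.

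Slc1a3, the gene of the GLAST antigen used for selection, was low in these cells, at 111, 73.3 and 125 CPM, and at 46.5 CPM on plate 1 without the cell that lacks the 4 markers. A transcript was seen in 61.0% of cells (95% exact interval 49.3% to 71.9%), and thinned to 2000 transcripts the share was 19.3%, below the 45.2% of microglia-like cluster 1. Cluster 3 had 5578 CPM on plate 1. A share below that of cluster 1 is not read here as expression, and whether free RNA gave these transcripts was not tested. The 14 astrocyte or quiescent stem cell markers summed to 0.133%, 0.0559% and 0.0849% of transcripts in these cells, against 3.75% in cluster 3 on plate 1. They ran from 0 to 1.41% in single cells, the highest being the cell without the 4 markers, and without it plate 1 had 0.0744%. The 12 microglia markers summed to 0.0533%, 0.0257% and 0.0215%, against 4.29%, 4.75% and 4.52% in cluster 1, and the highest cell had 0.767%. The part of these transcripts in other results was not tested. Markers of activated progenitors summed to 0.0533%, 0.0284% and 0.0252%, mostly Pcna on plates 2 and 3, and without the cell that lacks the 4 markers plate 1 had 0.00697% and the mean over plates was 0.0202% in place of 0.0357%. Neuron markers summed to 0%, 0.000917% and 0.00231% and neuroblast markers to 0%, 0.00367% and 0.00555% on plates 1, 2 and 3. Of 11 measured neuron markers 45.5% were detected and of 9 neuroblast markers 44.4%, against 74.9% of all genes. Some transcript of them was seen in 12 and 20 of the 77 cells, with Snap25, Syt1 and Dcx at 0.

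Foxj1, a regulator of motile cilia, was seen in 26.0% of these cells (95% exact interval 16.6% to 37.2%) at 22.2, 18.3 and 53.2 CPM, and had no transcript in any cell of cluster 1 or cluster 3. Those clusters were shallower, with median totals of 3455 and 4192 transcripts against 9012 here. At such low levels their zeros do not show that Foxj1 is particular to these cells. Of 6 measured ependymal markers, 2 were detected in the 77 cells, Foxj1 and 1110017D15Rik (33.3%, against 74.9% of all genes). Ccdc153, Rarres2, Mia and Hdc had no transcript, and Dynlrb2 and Tmem212 were not among the measured genes. Thinned to 2000 transcripts, the expected share of Foxj1 was 6.91%. Tubb3, a tubulin of young neurons and a member of the neuroblast list, showed a like pattern. It was seen in 23.4% of cells, 6.98% after thinning, and in none of clusters 1 and 3, with the same limit of depth.

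Cell-to-cell variation was measured in the 73 cells of plates 2 and 3, within plate, as the coefficient of variation (CV) that remains once counting noise is taken off. Over 727 genes with a mean of at least 2 transcripts per cell the median CV was 0.397. Myelin genes ranged widely, with a CV of 0.231 for Mog, 0.242 for Mbp, 0.248 for Cldn11, 0.468 for Mag, 0.489 for Mal and 0.844 for Gsn. The 28 measured myelin genes had a median of 0.388, close to that of all genes, and the 14 measured genes of the mature state 0.579. Potassium genes had 0.443 over 6 members, from 0.210 for Slc12a2 to 0.708 for Kcna2, and heat shock genes 0.301 over 8.

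The 4 genes with a CV above 1 were Sepp1, the selenium transport protein also called Selenop, at 1.32, Neat1, a nuclear noncoding RNA, at 1.23, Serpinb1a, a protease inhibitor, at 1.22, and Gng11, a G protein subunit, at 1.04. Elovl5, an elongase, followed at 0.991, Anln, an actin-binding protein that supports myelin septins, at 0.962 and Il33 at 0.907. On plate 2 alone the squared CV was 2.04 for Neat1 and 0.802 for Gng11, and on plate 3 alone it was 0.984 and 1.34, so of these 4 genes only Sepp1 and Serpinb1a lay above 1 on each plate. Plate 2 alone shared 11 of the 15 most variable genes, and plate 3 alone shared 8. At the other end 5 genes showed no variation above counting noise, Ddx17, Tyro3, Efcab14, Rps20 and Rpl18, and of these only Rpl18 showed none on either plate alone. Sepp1 had no transcript in 26 of the 73 cells, a median of 141 CPM and 3120 CPM in the highest cell. Ptgds was missing from 4 cells, with a median of 5557 and a highest value of 19310 CPM.

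**Figure D3:**
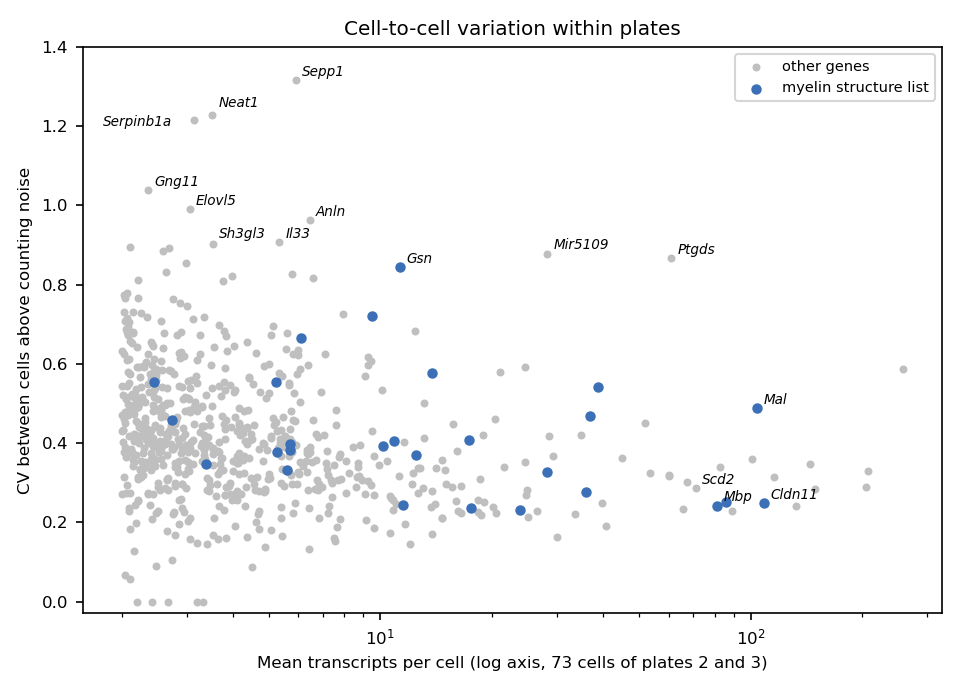
Coefficient of variation between the 73 cells of plates 2 and 3 above counting noise, against mean transcripts per cell on a log axis; each point is 1 gene and blue points are the myelin list. Sepp1 is highest at 1.32, while Mbp and Cldn11 lie below 0.3.

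For some of these genes, such as Sepp1, Serpinb1a and Gng11, much of the variation ran along the line between the 2 clusters. The clusters were drawn from these genes. Sepp1 stood at 1009 and 939 CPM in cluster 0 and at 58.7 and 50.9 CPM in cluster 2 on plates 2 and 3, and was seen in 34 of 41 and 13 of 32 cells. Serpinb1a had 503 and 471 CPM against 80.8 and 56.0, and Anln had 771 and 1049 CPM against 220 and 229. Ptgds went the other way, with 3366 and 3928 CPM in cluster 0 and 7698 and 9345 CPM in cluster 2. Measured within plate and cluster, the squared CV of Sepp1 was 0.676 in place of 1.73, that of Serpinb1a 0.635 in place of 1.48 and that of Gng11 0.375 in place of 1.08. Neat1 kept 1.43 of 1.51 and Il33 0.805 of 0.823. Of the 15 most variable genes, 9 were shared by both measures.

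Across cells, Sepp1 and Ptgds ran opposite to each other, with a Spearman rho of -0.768 over the 25 cells of plate 2 and -0.568 over the 48 cells of plate 3. Sepp1 ran with Serpinb1a at 0.449 and 0.575 and with Gng11 at 0.480 and 0.552. Il33 ran against Elovl5 at -0.634 and -0.419. The points share a library and a depth per cell and the genes helped to draw the clusters, so these values are descriptions. The share of myelin transcripts ran with total transcripts per cell at 0.782 and 0.535, and with the sphingolipid and galactolipid share at 0.555 and 0.508. Against the mitochondrial share the values were -0.735 on plate 2 and -0.0564 on plate 3.

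**Figure D4:**
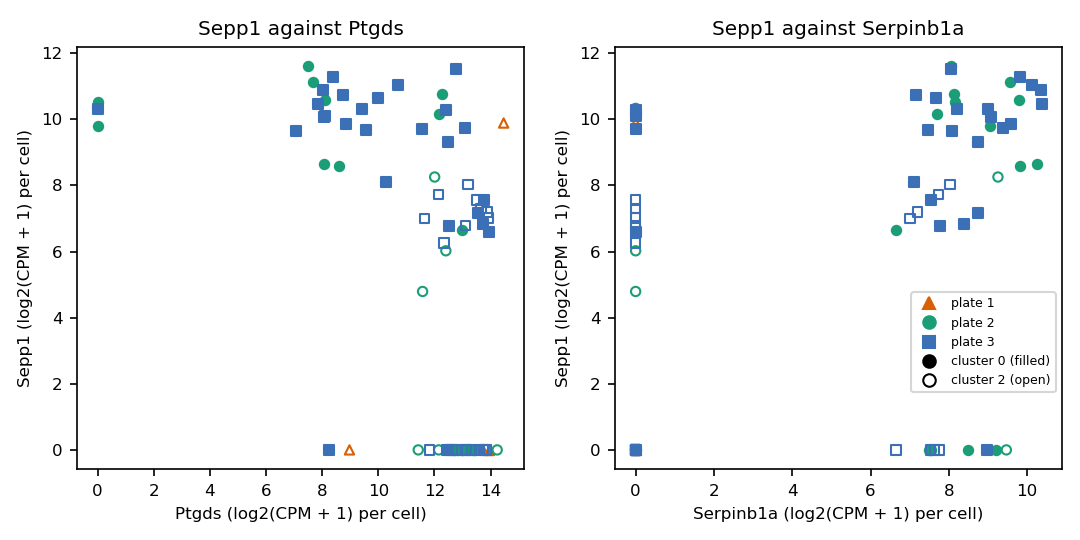
Sepp1 against Ptgds and against Serpinb1a in each of the 77 cells, as log2(CPM + 1); colour and shape give the plate, filled symbols are cluster 0 and open symbols are cluster 2. Cells high in Sepp1 are mostly in cluster 0, and Spearman's rho with Ptgds is -0.768 on plate 2 and -0.568 on plate 3.

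Autofluorescence was not used to draw the clusters and allows a test. The title of the series asks how it relates to stem cell activation; here the question is which genes differ with it among oligodendrocyte-lineage-like cells. The median was 1119 arbitrary units over the 77 cells, with 1076, 1577 and 1035 on plates 1, 2 and 3, against 4929, 5397 and 3950 in cluster 1. Brighter cells held more transcripts, with a Spearman rho of 0.497 on plate 2 and 0.572 on plate 3. Cells above the median of their plate were summed as high and the others as low, which gave 2 against 2 cells, 12 against 13 and 24 against 24, and 37737 against 7277, 197365 against 129910 and 274502 against 157849 transcripts. The high sums also held more cluster 0 cells, 9 of 12 against 6 of 13 on plate 2 and 15 of 24 against 11 of 24 on plate 3.

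No gene passed. In edgeR's quasi-likelihood test, blocked by plate and with Benjamini-Hochberg adjustment, 0 of 2435 genes were called (0%), and 49 had an unadjusted p under 0.05, of which 33 were higher and 16 lower in high cells. That split was 33 and 33 without the cell that lacks the 4 markers, and 32 and 40 with cells split within plate and cluster. DESeq2 called 0, with 17 under that unadjusted limit. The smallest p belonged to Gsn, gelsolin, an actin-severing protein of the myelin list. Gsn stood at 1114 CPM in high and 137 CPM in low cells of plate 1, at 1480 and 724 CPM on plate 2 and at 1195 and 697 CPM on plate 3, so it was higher on 3 of 3 plates. Its log2 fold change was 1.11 with a standard error of 0.36 and an edgeR adjusted p of 1. The next were Hist1h1c, Itih3, Hnrnpd and Arfip1, with log2 fold changes of 1.81, 1.77, -1.65 and -1.30 and none past the threshold.

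Without plate 1, edgeR called 2 of 3132 genes (0.0639%). Gsn was higher in high cells, with a log2 fold change of 0.90 (SE 0.18) and an adjusted p of 0.000952. Apoe was lower, with -0.79 (SE 0.18) and an adjusted p of 0.0283. Apoe stood at 426 CPM in high and 685 CPM in low cells on plate 2, at 721 and 1318 CPM on plate 3, and at 1909 and 1512 CPM on plate 1, where the order was the other way. A fit of the brightest against the dimmest cells, 8 against 8 on plate 2 and 16 against 16 on plate 3 with none of plate 1, called 0 of 2132 genes, with an edgeR adjusted p of 0.596 for Gsn and 0.336 for Apoe. Over the other fits the adjusted p of Gsn lay between 0.596 and 1 and that of Apoe between 0.0607 and 1. Split within plate and cluster, Apoe had a log2 fold change of -1.22 and Gsn one of 0.61. The cell that lacks the 4 markers is 1 of the 2 low cells of plate 1, and without it, with plate 1 split anew into 1 high and 2 low cells, the fit called 0 genes, with log2 fold changes of 0.74 for Gsn and -1.07 for Apoe. On plate 1 Gsn then had 1055 CPM in the high cell against 964 CPM in the low cells, and Apoe 586 against 2583 CPM, the order of the other plates.

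Myelin genes lay mostly on the high side, without a call. Of 32 tested, 27 had a log2 fold change above 0 with a median of 0.38, where 1367 of all 2435 genes lay above 0 with a median of 0.05. Without the cell that lacks the 4 markers these were 22 of 32 with a median of 0.13 and 1147 of 2449 with -0.03, and with cells split within plate and cluster 20 of 31 with 0.13 and 1239 of 2589 with -0.02. The list held 12.3% against 5.39%, 12.3% against 10.3% and 11.1% against 9.67% of transcripts in high and low cells of plates 1, 2 and 3. Mal stood at 14319 against 4262, 11156 against 8362 and 11139 against 8060 CPM. With the cell left out and plate 1 split anew, that plate had 14.6% against 9.75% for the list and 21578 against 7826 CPM for Mal. Mitochondrial transcripts ran the other way, at 13.7% against 16.7%, 11.9% against 15.6% and 11.8% against 12.5%, but plate 1 had 16.3% against 11.7% with that cell left out. Of ribosomal protein genes 21 of 70 lay above 0. Depth, cluster and mitochondrial share moved with the high and low sides, and their part in these differences was not tested.

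**Figure D5:**
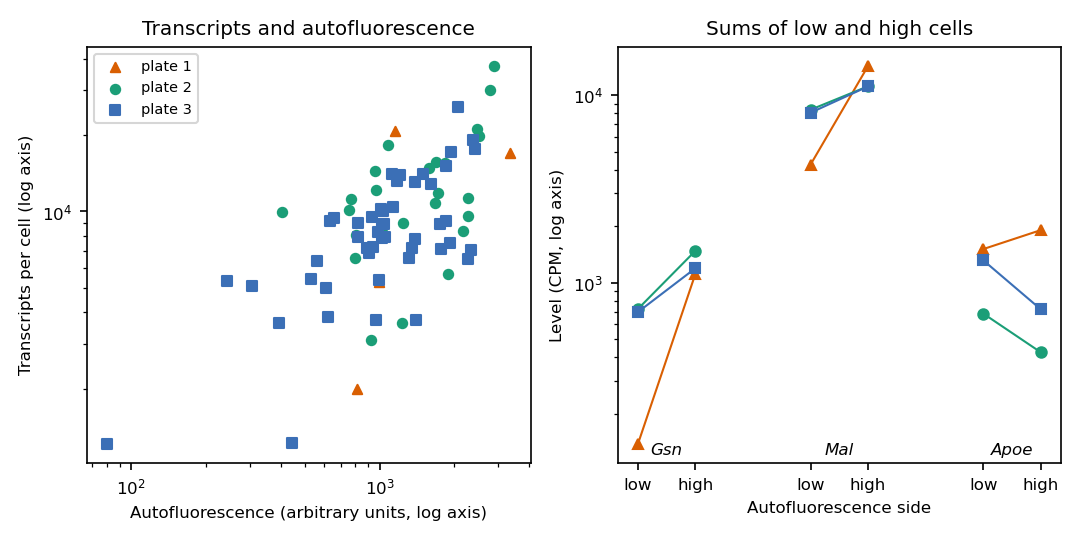
Left, transcripts per cell against autofluorescence for the 77 cells, both on log axes, with plates by colour and shape. Right, levels of Gsn, Mal and Apoe in CPM on a log axis in the summed low and high cells of each plate, joined by lines; Gsn and Mal are higher in the high cells on 3 of 3 plates and Apoe on 1 of 3.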

How the data were processed

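Estimated counts of transcripts per gene and cell, total transcripts, the count of genes per cell, the percent of mitochondrial transcripts, cluster numbers and an autofluorescence intensity per cell were used as deposited by the authors. The estimated counts carry a correction for identifiers that collide by chance, which gave whole numbers for 100% of 349688 values above 0 when inverted for 4096 identifiers (tolerance 1e-06). The deposited percent covers 24 mitochondrial genes for ribosomal and transfer RNA; the mitochondrial shares given here add 13 coding genes. Per the submitters' processing notes, the genome builds mm10 and hg19 and the tools Seurat 4.1.1, BWA 0.7.15 and R 4.2.0 were involved, with no role given for any. The sources used here do not give the annotation, the cell filter or how doublets were treated. No doublet caller was run. Of the columns per cell, 12 were not used here. The plate was read from the last digit of the library name.

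Transcripts were summed per plate and scaled to CPM. Shares of cells have exact (Clopper-Pearson) 95% intervals, which cover counting error only. Thinned shares are hypergeometric expectations at 2000 transcripts. Autofluorescence sums, rounded to whole counts, were fitted with edgeR 4.0.16 in R 4.3.3 (TMM, its filter on low counts, plate as block, Benjamini-Hochberg at 0.05), with DESeq2 1.42.0 as an alternative. The measure of variation and the edgeR fit were tested on simulated data, and the other steps were not. Cells of a plate share 1 library, which is the pairing behind the block. The members and gene lists were chosen with earlier results of these data known. Genes are named by rule: the 25 most abundant, up to 6 most abundant and up to 5 undetected members of each list, the 15 most and 10 least variable, the 5 smallest p-values where fewer than 5 pass, the markers, and the 8 largest ratios each way between plates 2 and 3. Apoe in the fit without plate 1 and Mobp, Scd1, Fasn, Gal3st1, Kcna2, Gjb1, Slc16a1, Fos, Egr1, Hspa1a, Hspa1b, Klk6 and S100b were chosen after their values were seen. Results on some genes are not reported here.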

Additional observations from a re-analysis of the deposited data

How the results depend on the processing

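With 4 cells on plate 1, the values of that plate carry the most counting error, and with 3 plates only large differences between sums can pass. The myelin share of 11.1% was 9.58% as a mean over cells and 12.8% with mitochondrial genes left out, and ran from 10.9% to 11.3% when 1 plate was left out; Cldn11, at 10933 CPM, was 9270 and 12607 CPM in the same settings and ran from 10585 to 11561. Genes in at least 50% of thinned cells numbered 317, with 130 at 1000 and 727 at 4000 transcripts. The median squared CV of 0.158 was 0.140 within plate and cluster and ran from 0.145 to 0.155 when 1 plate was left out. The count of genes with autofluorescence was 0 and ran from 0 to 2 when 1 plate was left out; without the replicate block it was 0, with 53 at an unadjusted p under 0.05, and no other fit made a call. Astrocyte markers were 0.192% and activated progenitor markers 0.108% as means over cells, against 0.0914% and 0.0357%; the latter were 0.0202% in cells with at least 2000 transcripts. Fits on whole identifiers, without mitochondrial genes or without the cell lacking the markers were chosen after seeing the data. The median log2 fold change of all genes, 0.05, was -0.0038 for the brightest against the dimmest cells, -0.02 split within plate and cluster and -0.03 without that cell.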
